A study of Homo sapiens with 6 samples.

Results

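Aminoacyl-tRNA synthetases are the enzymes that load each amino acid onto its transfer RNA, and their transcripts were compared between A549 cells activated by osteoclast-conditioned medium and dormant A549 cells. Members were all rows of the count table whose symbol was a single letter followed by ARS, with or without a closing 1, 2 or 3, together with EPRS1, FARSA and FARSB. The rule found 38 of 19470 genes, of which 21 encode cytosolic and 17 encode mitochondrial enzymes (suffix 2). TARS3, formerly TARSL2, was counted as cytosolic. GARS1 and KARS1 were counted as cytosolic too, although each gene is known to supply both compartments.

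A549 is a human lung adenocarcinoma cell line, labelled wild type in all libraries. RNA sequencing gave 3 libraries of cells treated with medium conditioned by osteoclasts (tagged OC) and 3 libraries of cells in induced dormancy (tagged SF). Not given in the sources used here are the way dormancy was induced, the base medium of either state, and whether replicates were grown as separate cultures. State and medium therefore cannot be told apart, and each p-value rests on the spread among these replicates, which may be technical. The RNA was bulk, in which fewer cells of a type and less RNA per cell cannot be told apart.

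Total counts lay between 34128471 and 36667725 per library, and no library stood apart, with Pearson correlations of log2 CPM across genes of at least 0.987 within a group and at most 0.910 between groups. Summed levels of 6 A549 markers, keratins among them, were 14106 to 15299 CPM in activated libraries and 5619 to 5848 CPM in dormant libraries, and CDKN2A, which is deleted in this line, had 1 count in all 6 libraries together. Of the A549 markers, ALDH1A1 averaged 7700 CPM in activated libraries and 1570 CPM in dormant libraries, KRT8 3460 and 1672 CPM, and KRT18 1980 and 1039 CPM. The groups overlapped for KRT19, AKR1C1 and AKR1B10. Summed levels of 8 osteoclast markers were 6.63 to 7.98 CPM in activated libraries and 8.57 to 11.1 CPM in dormant libraries, those of 8 myeloid markers 11.5 to 12.8 CPM and 0.979 to 1.77 CPM, and those of 4 stromal markers 10.6 to 12.0 CPM and 5.86 to 6.12 CPM. Of the osteoclast and myeloid lists, CALCR, DCSTAMP, OCSTAMP, TYROBP, AIF1, C1QA, C1QB and C1QC had 0 counts in all libraries. CD14 was 8.37-fold, CSF1R 8.42-fold, LAPTM5 9.29-fold and MMP9 5.28-fold higher in activated libraries, and ACP5 10.8-fold lower. CTSK averaged 6.29 CPM in activated libraries and 8.31 CPM in dormant libraries, OSCAR 0.319 and 0.713 CPM, and PTPRC 0.0508 and 0.00932 CPM. All 4 stromal markers were higher in activated libraries: COL1A1 1.52-fold, LUM 3.16-fold, PDGFRA 6.93-fold and DCN 36.6-fold. The folds of CSF1R, MMP9, ACP5, PDGFRA and DCN rest on few counts. PDGFRA averaged 0.824 CPM in activated libraries and 0.116 CPM in dormant libraries, and DCN 0.450 and 0.00857 CPM. CSF1R averaged 0.774 CPM in activated libraries and 0.0877 CPM in dormant libraries, MMP9 0.770 and 0.143 CPM, and ACP5 0.0486 and 0.563 CPM. The part of the detected markers in the results was not tested.

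Cells hold a cytosolic set of synthetases for the main ribosomes and a separate set, encoded in the nucleus and imported, for translation inside mitochondria. When charged tRNA runs short, the kinase GCN2 senses uncharged tRNA and translation of the transcription factor ATF4 rises. ATF4 is known to induce genes of amino acid supply, among them many but not all of the cytosolic synthetases. Change was widespread: in edgeR's quasi-likelihood fit, 73.7% of 13336 tested genes had an adjusted p under 0.05, with 4868 (36.5%) higher and 4962 (37.2%) lower in activated cells, and for 76.5% the CPM values of the groups did not overlap. CPM is counts scaled to library size with TMM factors. If libraries were scaled by their total counts only, 3941 genes were called higher and 5998 lower, a shift of -0.14 in the median over all genes (log2).

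All 38 members had enough counts to be tested. The cytosolic set split in both directions. All 21 members passed, and 13 fell and 8 rose in activated cells, with a median log2 fold change of -0.48 beside -0.02 over all genes tested, and the groups did not overlap for any of them. At least a 2-fold fall was seen for 8 cytosolic members, against 11.0% of all genes, and a rise of that size for VARS1 alone, against 11.2%. Of the 17 mitochondrial members, 7 rose, 5 fell and 5 did not pass, with a median of 0.20, and the groups did not overlap for 13, shares near those of all genes. With total counts the split was 7 higher and 13 lower in the cytosolic set and 6 and 6 in the mitochondrial set.

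**Figure D1:**
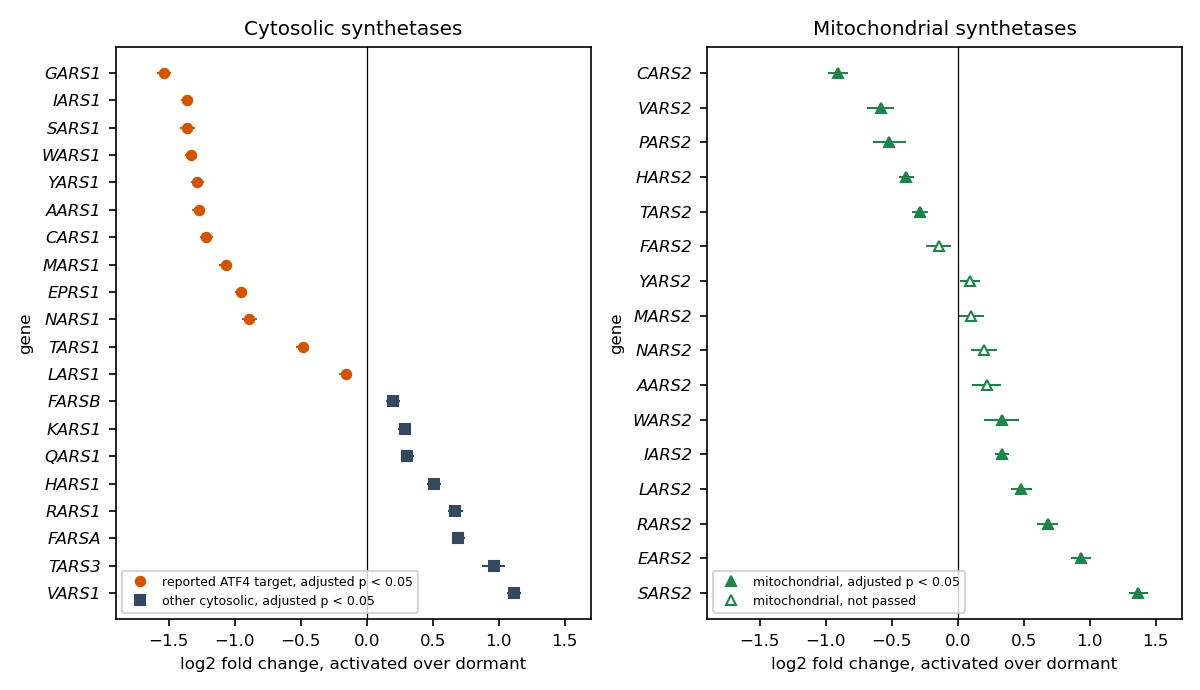
Log2 fold change of each synthetase gene, activated over dormant, with its standard error (edgeR, 3 libraries per group). Left, 20 cytosolic genes, split into reported ATF4 targets and others. Right, 16 mitochondrial genes, with open symbols for the 5 that did not pass. Cytosolic values run between -1.54 and 1.12, and the 12 reported targets all lie left of 0.

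The largest fall among the members was that of GARS1, the glycyl-tRNA synthetase (chromosome 7, 30594735 to 30634033 of GRCh38.p14, as for all positions given). It had 172, 159 and 158 CPM in activated libraries, against 496, 463 and 462 CPM in dormant libraries. The groups lay far apart relative to their spread, with a log2 fold change of -1.54 ± 0.05 (SE), a 2.90-fold fall (edgeR adjusted p = 2.45e-12).

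IARS1, the isoleucyl-tRNA synthetase (chromosome 9, 92210207 to 92293697), had 249, 244 and 244 CPM in activated libraries, against 643, 628 and 622 CPM in dormant libraries. It fell 2.57-fold (edgeR adjusted p = 1.74e-12). SARS1, the seryl-tRNA synthetase (chromosome 1, 109213893 to 109238182), had 92.9, 80.5 and 88.6 CPM in activated libraries, against 226, 223 and 222 CPM in dormant libraries, a 2.56-fold fall. WARS1, the tryptophanyl-tRNA synthetase (chromosome 14, 100333790 to 100376327), also known as an interferon-induced gene, had 145, 150.4 and 151 CPM in activated libraries, against 379.6, 372 and 372 CPM in dormant libraries. YARS1, the tyrosyl-tRNA synthetase (chromosome 1, 32775239 to 32817358), had 96.4, 91.7 and 91.7 CPM in activated libraries, against 225, 232 and 224 CPM in dormant libraries. The falls were 2.52-fold for WARS1 and 2.43-fold for YARS1. In each of these genes the activated libraries all lay below the dormant ones, with narrow spreads.

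AARS1, the alanyl-tRNA synthetase (chromosome 16, 70252298 to 70289506), had 245, 234 and 236 CPM in activated libraries, against 598, 554 and 575 CPM in dormant libraries. Its fall was 2.42-fold (edgeR adjusted p = 7.93e-12). CARS1 for cysteine fell 2.32-fold, MARS1 for methionine 2.10-fold, EPRS1, the fused enzyme for glutamate and proline, 1.93-fold, and NARS1 for asparagine 1.85-fold. Smaller falls were 1.40-fold for TARS1 (threonine) and 1.12-fold for LARS1 (leucine). The call of LARS1 ended without dormant replicate 1 (edgeR adjusted p = 0.0854). MARS1 shares 355 exon bases (5.05% of its exon bases in GENCODE 29) with DDIT3 on the opposite strand. DDIT3 itself averaged 4.16 ± 0.659 CPM in activated libraries and 123.4 ± 7.30 CPM in dormant libraries (SD, n = 3 each), and MARS1 176 ± 2.78 and 369.9 ± 9.72 CPM.

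**Figure D2:**
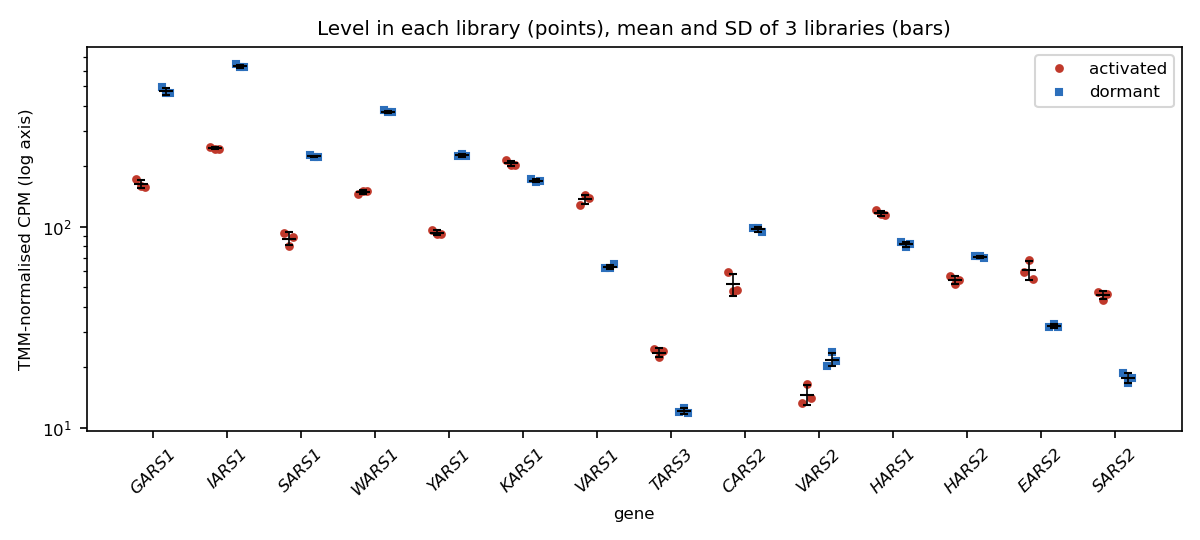
TMM-normalised CPM of 14 synthetase genes in each of the 6 libraries on a log axis, activated left of dormant, with the mean and SD of 3 libraries. GARS1, IARS1, SARS1, WARS1, YARS1, CARS2, VARS2 and HARS2 lie lower in activated libraries, and KARS1, VARS1, TARS3, HARS1, EARS2 and SARS2 higher, without overlap.

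Of the cytosolic genes, 12 are widely reported as ATF4 targets (AARS1, CARS1, EPRS1, GARS1, IARS1, LARS1, MARS1, NARS1, SARS1, TARS1, WARS1 and YARS1), a list written down with earlier results of these data known. All 12 fell, with a median log2 fold change of -1.24, beside 37.2% of all genes lower and an all-gene median of -0.02. Of the 9 other cytosolic members, 8 rose, with a median of 0.51, beside 36.5% of all genes higher. Summed over the 12 genes, the level was 1932 ± 29.3 CPM in activated libraries and 4130.1 ± 102 CPM in dormant libraries (SD, n = 3 each), and over the 9 others it was 1042 ± 11.0 and 751 ± 2.25 CPM. The 2 sums differed between the groups in opposite directions. As the list was written with results known, this split lends no support of its own.

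Promoter windows were read for 30 members from RefSeq (GRCh38.p14, 250 bases before to 50 after an annotated transcript start) and searched on both strands for TGATGNAA, the core of the element through which ATF4 and its C/EBP partners act. The other 8 members had no window. The letters were present in at least 1 window of 7 of 16 cytosolic genes (AARS1, CARS1, GARS1, IARS1, MARS1, NARS1 and TARS1) and of 1 of 14 mitochondrial genes (YARS2), against 4.46% of 27305 genes with such windows and 3.6% of 15843 protein-coding genes. By window, 33.3% of the cytosolic ones matched, against 3.62% of 35116. All 7 cytosolic genes with a match fell, with a median log2 fold change of -1.21, beside 37.2% of all genes lower. Each of the 7 is on the list of reported targets, of which 10 had a window, and 0 of the 6 other cytosolic genes matched. Their falls therefore repeat the split above and lend no support of their own. Of the 9 without a match, EPRS1, SARS1 and WARS1 fell and 6 rose (FARSA, FARSB, HARS1, KARS1, QARS1 and RARS1), with a median of 0.29, beside 36.5% of all genes higher. The share lower among all genes with a match was not computed. A match is a description of the sequence, and binding was not measured.

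The windows of 5 of these genes are shown 5′ to 3′ on the strand of the gene, with the matching letters in capitals. GARS1 and IARS1 fell most, in CARS1 and MARS1 the match spans the transcript start, and TARS1 fell least of those with a match.
GARS1 (chr7:30594628-30594927, plus strand): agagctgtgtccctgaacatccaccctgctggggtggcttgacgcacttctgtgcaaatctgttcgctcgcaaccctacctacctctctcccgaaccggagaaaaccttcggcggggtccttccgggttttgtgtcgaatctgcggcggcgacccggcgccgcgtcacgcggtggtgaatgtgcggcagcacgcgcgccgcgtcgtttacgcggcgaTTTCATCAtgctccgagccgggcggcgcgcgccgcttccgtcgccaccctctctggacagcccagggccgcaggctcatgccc
IARS1 (chr9:92293648-92293947, minus strand): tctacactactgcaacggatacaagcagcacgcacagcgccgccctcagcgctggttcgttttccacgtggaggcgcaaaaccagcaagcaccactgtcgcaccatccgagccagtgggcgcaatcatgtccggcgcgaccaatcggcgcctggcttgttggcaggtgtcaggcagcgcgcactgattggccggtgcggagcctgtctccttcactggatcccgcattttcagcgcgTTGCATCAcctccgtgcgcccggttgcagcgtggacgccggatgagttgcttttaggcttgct
CARS1 (chr11:3057374-3057673, minus strand): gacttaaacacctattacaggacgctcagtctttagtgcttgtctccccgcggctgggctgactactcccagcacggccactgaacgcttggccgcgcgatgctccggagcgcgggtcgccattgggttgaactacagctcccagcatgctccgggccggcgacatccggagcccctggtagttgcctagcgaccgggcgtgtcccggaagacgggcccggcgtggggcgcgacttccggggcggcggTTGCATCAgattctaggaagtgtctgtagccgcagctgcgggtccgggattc
MARS1 (chr12:57487818-57488117, plus strand): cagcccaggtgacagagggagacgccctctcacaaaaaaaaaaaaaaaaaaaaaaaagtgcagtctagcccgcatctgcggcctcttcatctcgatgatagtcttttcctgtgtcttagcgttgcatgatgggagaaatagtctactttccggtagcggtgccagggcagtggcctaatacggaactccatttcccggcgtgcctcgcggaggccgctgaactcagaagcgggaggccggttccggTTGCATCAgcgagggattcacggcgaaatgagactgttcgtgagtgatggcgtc
TARS1 (chr5:33440715-33441014, plus strand): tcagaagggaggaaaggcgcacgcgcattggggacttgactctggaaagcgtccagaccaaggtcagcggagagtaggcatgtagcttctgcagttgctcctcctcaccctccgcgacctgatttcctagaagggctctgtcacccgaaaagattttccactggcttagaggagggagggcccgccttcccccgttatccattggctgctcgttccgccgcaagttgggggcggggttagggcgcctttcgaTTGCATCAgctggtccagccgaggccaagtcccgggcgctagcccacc
Read on the strand of the gene, 4 of the 5 carry the same letters, TTGCATCA, the reverse complement of the searched core, and GARS1 has TTTCATCA. Counted from the transcript start on which each window is set, the match begins 33 bases before it in GARS1, 13 before in IARS1, 4 before in MARS1 and 2 before in CARS1, and at base 3 after it in TARS1. In GARS1 and TARS1 that is a later start, inside the gene as positioned here, and the window at the outermost start of either gene holds no match. CARS1 has a further window at a start inside the gene, also with no match.

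**Figure D3:**
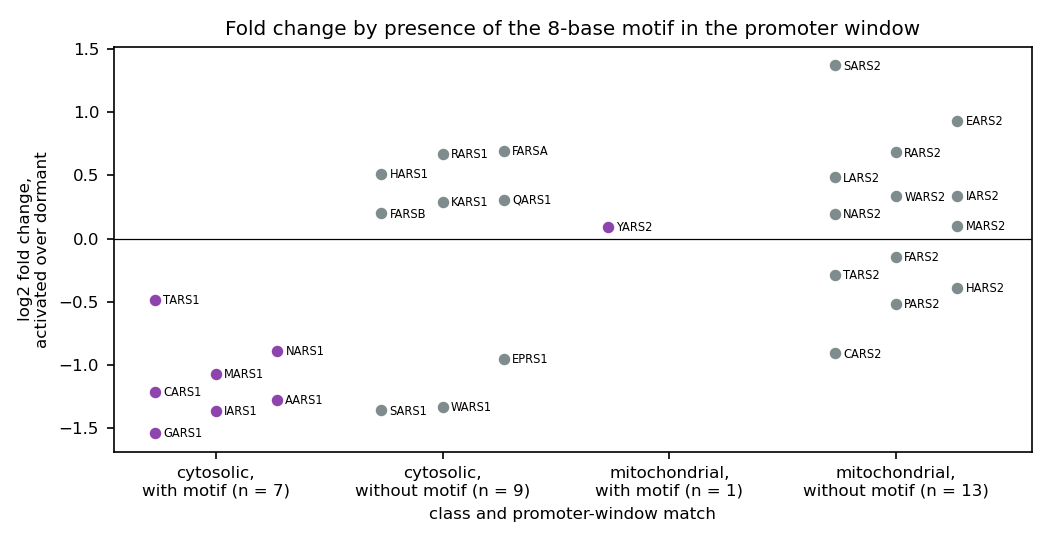
Log2 fold change (activated over dormant) of the 30 synthetase genes with a promoter window, by class and by whether a window holds the searched core. The 7 cytosolic genes with a match lie between -1.54 and -0.48, and the 9 without one between -1.36 and 0.70.

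The 8 cytosolic members that rose were led by VARS1, the valyl-tRNA synthetase (chromosome 6, 31777518 to 31795752). It had 128, 143 and 139 CPM in activated libraries, against 62.2, 62.5 and 64.9 CPM in dormant libraries, a 2.17-fold rise (log2 fold change 1.12 ± 0.06 SE, edgeR adjusted p = 1.32e-10). TARS3, the cytosolic paralogue of TARS1 (chromosome 15, 101653596 to 101724473), had 24.6, 22.4 and 23.9 CPM in activated libraries, against 12.0, 12.5 and 11.8 CPM in dormant libraries. It rose 1.95-fold while TARS1 fell. RARS1 for arginine (chromosome 5, 168486471 to 168519301) had 155, 137 and 149 CPM in activated libraries, against 92.0, 94.1 and 90.7 CPM in dormant libraries, a 1.59-fold rise.

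The phenylalanine enzyme is built from a catalytic alpha and a beta subunit in equal number, encoded by FARSA (chromosome 19, 12922479 to 12933711) and FARSB (chromosome 2, 222566899 to 222656092). FARSA had 109, 112 and 110.4 CPM in activated libraries, against 66.2, 67.8 and 70.3 CPM in dormant libraries, and FARSB 66.4, 64.1 and 66.9 CPM in activated libraries, against 57.0, 57.3 and 57.5 CPM in dormant libraries. FARSA rose 1.62-fold and FARSB 1.15-fold. The call of FARSB ended with total counts (edgeR adjusted p = 0.320). Per length, FARSA averaged 58.0 ± 0.725 FPKM in activated libraries and 39.5 ± 1.33 FPKM in dormant libraries (SD, n = 3 each), and FARSB 6.82 ± 0.150 and 6.54 ± 0.0826 FPKM. The length behind the FPKM of FARSB was 9191 bases, 2.73 times the 3369 bases of its median-length coding transcript in GENCODE 29, and 1811 bases for FARSA, so the distance between the subunits in FPKM is uncertain.

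KARS1, the lysyl-tRNA synthetase of cytosol and mitochondria (chromosome 16, 75627724 to 75647665), had 214, 203 and 204 CPM in activated libraries, against 172, 168 and 169.5 CPM in dormant libraries, a 1.22-fold rise. QARS1 for glutamine (chromosome 3, 49095932 to 49104757) had 172, 175 and 181 CPM in activated libraries, against 143, 144 and 139.9 CPM in dormant libraries, a 1.24-fold rise. Both rises were small, and the groups did not overlap in either gene.

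The order of levels in deposited FPKM changed with these shifts. In dormant cells the highest cytosolic members on that scale were GARS1 at 185 ± 6.29 FPKM (SD, n = 3), AARS1 at 176 ± 5.08 FPKM, MARS1 at 139 ± 2.84 FPKM and IARS1 at 138 ± 1.89 FPKM, where the ranges of GARS1 and AARS1, and of MARS1 and IARS1, overlapped. In activated cells KARS1, at 86.4 ± 2.56 FPKM, ranked 1 of the 21, and GARS1 ranked 8 at 57.8 ± 2.71 FPKM. The order between genes is not secure, since the length behind FPKM was 2.45 times the median coding transcript in GENCODE 29 for KARS1, 1.82 times for GARS1 and up to 4.99 times in the cytosolic set. The SD of log2 FPKM over the 21 cytosolic members was 1.10 ± 0.00645 in activated libraries and 1.57 ± 0.0181 in dormant libraries (SD over 3 libraries), so cytosolic FPKM values, with the same lengths in both groups, were closer together in activated cells. For the 17 mitochondrial members it was 1.33 ± 0.0384 and 1.31 ± 0.0157. Summed over the class, cytosolic transcripts made up 0.283 ± 0.00355% of all counts in activated libraries and 0.512 ± 0.00672% in dormant libraries. Mitochondrial transcripts made up 0.0688 ± 9.49e-04% and 0.0684 ± 0.00111%, a difference smaller than the spread. On the TMM-normalised scale the mitochondrial sum was 722 ± 9.60 and 651 ± 13.6 CPM, so the size of this difference relative to its spread rests on the scaling.

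In the multi-synthetase complex, 8 cytosolic synthetases are known to sit with 3 scaffold proteins. Of its synthetases, 5 fell, IARS1, MARS1, EPRS1 and LARS1 among them, and KARS1, QARS1 and RARS1 rose, with a median of -0.15. Among all genes 37.2% were lower and 36.5% higher, so change in both directions is not particular to the complex. The 3 scaffold genes also parted (AIMP1 and AIMP2 were picked knowing their values). AIMP1 fell 1.46-fold and AIMP2 1.66-fold, whereas EEF1E1 rose 1.87-fold (edgeR adjusted p = 1.64e-06). EEF1E1 had 36.3, 29.2 and 29.6 CPM in activated libraries, against 16.3, 15.2 and 19.2 CPM in dormant libraries. Summed FPKM of the 8 synthetases was 411 ± 4.62 in activated libraries and 587 ± 7.75 in dormant libraries.

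**Figure D4:**
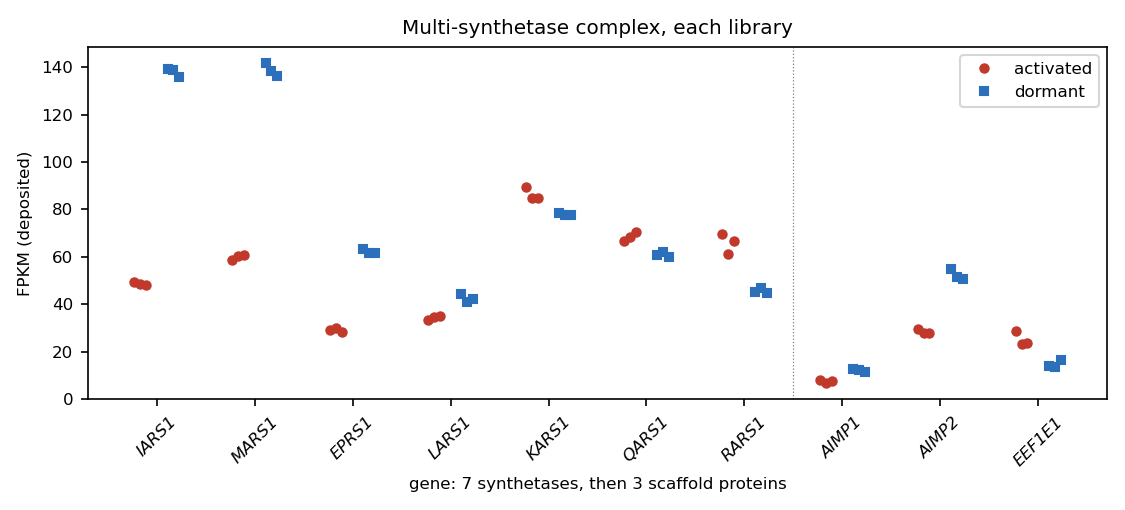
FPKM of 7 synthetases of the multi-synthetase complex and its 3 scaffold genes (right of the dotted line) in each library, activated left of dormant. IARS1 averaged 48.7 FPKM in activated libraries and 138 FPKM in dormant libraries, while KARS1 averaged 86.4 and 77.9 FPKM.

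Among the mitochondrial members, SARS2, the mitochondrial seryl-tRNA synthetase (chromosome 19, 38915266 to 38930763), rose most. It had 47.3, 43.2 and 46.1 CPM in activated libraries, against 18.6, 16.6 and 17.6 CPM in dormant libraries, a 2.58-fold rise (log2 fold change 1.37 ± 0.07 SE, edgeR adjusted p = 2.94e-10). In GENCODE 29 its longest coding transcript shares 71.9% of its 50-base words with a read-through gene on the same strand, and 10.8% of its exon bases lie opposite MRPS12, so its level depends on how such reads were assigned. EARS2, which charges glutamate (chromosome 16, 23520754 to 23557375), had 59.8, 68.5 and 55.2 CPM in activated libraries, against 31.5, 32.8 and 31.8 CPM in dormant libraries. It rose 1.91-fold. RARS2 for arginine (chromosome 6, 87513938 to 87589987) had 26.9, 24.7 and 27.4 CPM in activated libraries, against 15.7, 17.1 and 16.4 CPM in dormant libraries, a 1.60-fold rise. LARS2 rose 1.40-fold, IARS2 1.26-fold and WARS2 1.26-fold. IARS2 (chromosome 1, 220094132 to 220148041) had the highest deposited FPKM of the mitochondrial members in both states and had 195, 193 and 189 CPM in activated libraries, against 162, 144 and 152 CPM in dormant libraries. The rise of WARS2 missed the threshold with total counts (edgeR adjusted p = 0.199), with upper-quartile factors (0.0515), without activated replicate 2 (0.144) and without dormant replicate 2 or 3 (0.102 and 0.107).

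CARS2 for cysteine (chromosome 13, 110641410 to 110713522) fell most among the mitochondrial members, with 59.2, 47.7 and 48.3 CPM in activated libraries, against 98.1, 98.9 and 94.2 CPM in dormant libraries. Its fall was 1.88-fold (edgeR adjusted p = 3.72e-08), and activated replicate 1 was the highest of its group. VARS2 for valine (chromosome 6, 30914238 to 30926459) had 13.2, 16.4 and 14.0 CPM in activated libraries, against 20.4, 23.6 and 21.4 CPM in dormant libraries, a 1.499-fold fall. In GENCODE 29, 22.0% of its exon bases are shared with GTF2H4 on the same strand, which makes its level uncertain. PARS2 for proline (chromosome 1, 54756898 to 54764523) had 7.42, 7.26 and 6.92 CPM in activated libraries, against 10.4, 9.47 and 11.0 CPM in dormant libraries. TARS2 for threonine (chromosome 1, 150487419 to 150507602) had 40.3, 44.1 and 43.5 CPM in activated libraries, against 53.8, 53.2 and 48.8 CPM in dormant libraries. PARS2 fell 1.43-fold and TARS2 1.22-fold. AARS2, FARS2, MARS2, NARS2 and YARS2 did not pass, with log2 fold changes between -0.14 and 0.22. FARS2 was lower with total counts (edgeR adjusted p = 0.0166), AARS2 higher without activated replicate 1 (0.0235) and NARS2 higher without dormant replicate 1 (0.0147).

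The ratio of cytosolic to mitochondrial counts for the same amino acid was taken within each library, where the scaling of libraries cancels. It was computed for 18 pairs covering 17 amino acids. EPRS1 was paired with both EARS2 and PARS2, and FARS2 with both FARSA and FARSB, so the pairs are not all independent. All 3 activated ratios lay below all 3 dormant ratios in 12 pairs and above them in 4, and the groups overlapped for RARS1 to RARS2 and TARS1 to TARS2. For single genes, the CPM values of the groups did not overlap in 76.5% of all genes tested. No such share was computed for other gene pairs, so these counts are not particular to the synthetases. With 3 against 3 libraries a two-sided exact permutation test cannot give less than p = 0.1, which those 16 pairs reached (Benjamini-Hochberg adjusted p = 0.1125 over the 18).

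The serine pair moved most, with 1.97, 1.86 and 1.92 SARS1 counts per SARS2 count in activated libraries, against 12.2, 13.4 and 12.6 in dormant libraries, a 6.63-fold lower ratio. The uncertainty of SARS2 given above applies to it. EPRS1 to EARS2 was 2.23 to 2.63 in activated and 8.64 to 9.41 in dormant libraries. IARS1 to IARS2 was 1.27 to 1.29 and 3.97 to 4.37. In the isoleucine pair both genes are abundant and no 50-base word of the longest coding transcript of either occurred in another gene of GENCODE 29. Its ratio was 3.24-fold lower. The valine pair went the other way, with 8.72 to 9.93 in activated and 2.64 to 3.06 in dormant libraries, a 3.26-fold higher ratio. The uncertainty of VARS2 given above applies to this ratio. FARSA and FARSB relative to FARS2, and HARS1 relative to HARS2, were the other higher ratios. For arginine, where both enzymes rose, the ratio was 5.43 to 5.77 and 5.49 to 5.87.

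**Figure D5:**
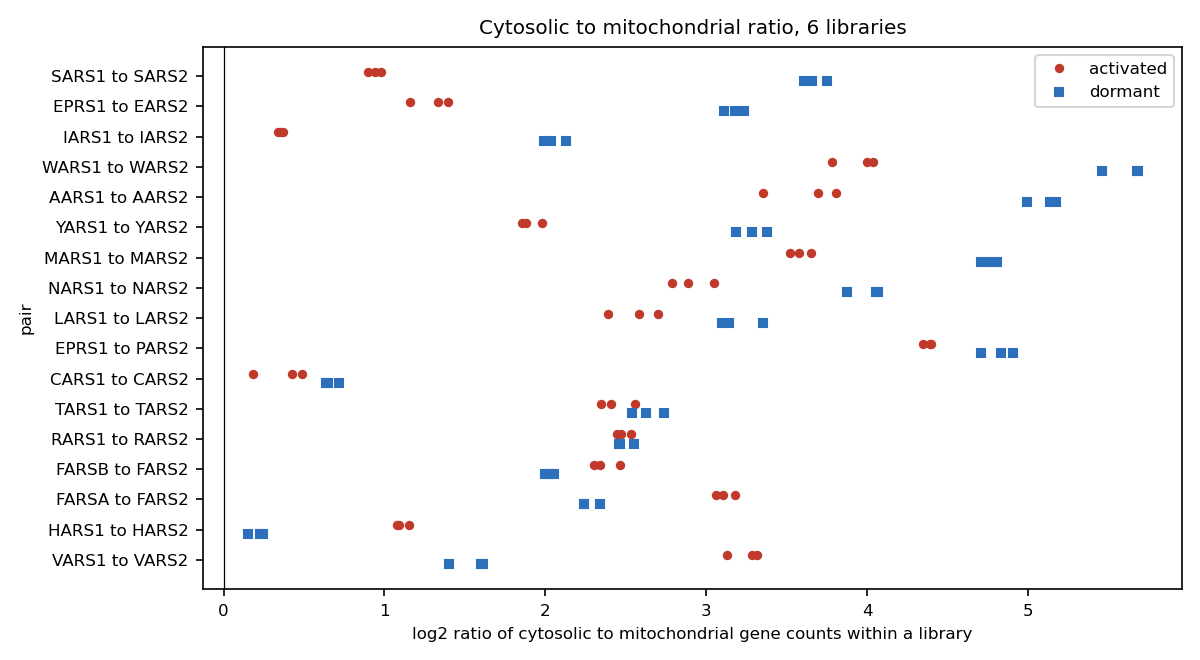
Log2 ratio of cytosolic to mitochondrial gene counts in each library for 17 pairs, activated (circles, upper row of each pair) and dormant (squares, lower row), ordered by the difference. The SARS1 to SARS2 ratio is 6.63-fold lower and the VARS1 to VARS2 ratio 3.26-fold higher in activated libraries.

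The histidine pair is arranged head to head. HARS1 (chromosome 5, 140673905 to 140691370) is read from the minus strand and HARS2 (chromosome 5, 140691455 to 140699305) from the plus strand, with 84 bases between their RefSeq starts, shown in capitals in the window of HARS2.
HARS2 (chr5:140691205-140691504, plus strand): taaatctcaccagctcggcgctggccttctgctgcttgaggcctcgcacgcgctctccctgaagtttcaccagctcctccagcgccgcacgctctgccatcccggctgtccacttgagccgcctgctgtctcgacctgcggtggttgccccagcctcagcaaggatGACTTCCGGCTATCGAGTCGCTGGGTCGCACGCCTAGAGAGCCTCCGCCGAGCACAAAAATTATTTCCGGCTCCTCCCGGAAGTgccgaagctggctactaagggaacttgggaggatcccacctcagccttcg
HARS1 had 121, 115 and 114 CPM in activated libraries, against 84.2, 79.6 and 81.9 CPM in dormant libraries. HARS2 had 56.7, 51.9 and 54.2 CPM in activated libraries, against 71.2, 71.8 and 70.0 CPM in dormant libraries. Counts of the neighbours moved in opposite directions, HARS1 with a 1.43-fold rise (edgeR adjusted p = 3.21e-07) and HARS2 with a 1.31-fold fall (edgeR adjusted p = 1.52e-05). The starts in use in these cells were not measured. There were 2.13, 2.22 and 2.11 HARS1 counts per HARS2 count in activated libraries, against 1.18, 1.11 and 1.17 in dormant libraries. In GENCODE 29 the genes share 437 exon bases on opposite strands, 5.56% of HARS1 and 11.7% of HARS2, and the strand setting of the counting is unknown. HARS2 also shares 152 exon bases (4.07%) with ZMAT2 on the same strand.

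Of 19 genes that work beside the synthetases in tRNA charging, processing and export, 18 were tested, 9 rose and 7 fell, with a median log2 fold change of 0.21, and the 16 that passed are set against 73.7% of all genes. XPOT, which exports tRNA from the nucleus and is another reported ATF4 target, had 170.4, 169.7 and 171 CPM in activated libraries, against 341, 330.4 and 333 CPM in dormant libraries, a 1.97-fold fall (edgeR adjusted p = 6.45e-11). SEPSECS, which completes selenocysteine on its tRNA, had 5.38, 7.23 and 5.91 CPM in activated libraries, against 13.8, 15.3 and 14.1 CPM in dormant libraries, a 2.34-fold fall. DTD1, a deacylase that removes D-amino acids from tRNA, fell 1.79-fold, to 73.0, 72.4 and 75.5 CPM in activated libraries, against 136, 130.0 and 129 CPM in dormant libraries. The other falls were those of AIMP1, AIMP2, QRSL1 and GATC.

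Besides EEF1E1, the rises included MTFMT, which formylates the initiator tRNA of mitochondria. MTFMT had 27.3, 26.6 and 26.0 CPM in activated libraries, against 16.6, 14.2 and 14.5 CPM in dormant libraries, a 1.76-fold rise. ELAC1, a tRNA 3′ processing enzyme, had 3.71, 5.503 and 4.36 CPM in activated libraries, against 2.64, 2.88 and 3.27 CPM in dormant libraries. Its call ended without activated replicate 2 (edgeR adjusted p = 0.0815). The other rises were those of DTD2, TRNT1 (not with total counts, edgeR adjusted p = 0.397), ELAC2, TRMT10C, HSD17B10 and PRORP, which act mainly on tRNA ends or on mitochondrial tRNA precursors, apart from the deacylase DTD2. Within the mitochondrial amidotransferase that makes glutaminyl-tRNA, QRSL1 fell 1.61-fold and GATC 1.20-fold, while GATB had a log2 fold change of 0.20 ± 0.10 (edgeR adjusted p = 0.0705). PSTK did not pass either, and AARSD1 had too few counts to be tested.

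Of 13 genes of the GCN2 and ATF4 amino acid response, 10 fell, 2 rose and EIF2AK4, which encodes GCN2, did not pass, with a median log2 fold change of -1.66, beside 37.2% lower and 36.5% higher among all genes. ATF4, picked knowing its value, averaged 234 ± 8.34 CPM in activated libraries and 631 ± 19.6 CPM in dormant libraries (SD, n = 3 each), a 2.70-fold fall of its transcript. ATF4 protein was not measured. DDIT3, TRIB3 and PPP1R15A fell more than ATF4, whereas CEBPB (2.16-fold) and DDIT4 (1.29-fold), also picked knowing their values, fell less. DDIT3, a stress-induced transcription factor, had 4.82, 4.15 and 3.504 CPM in activated libraries, against 116, 131 and 123.3 CPM in dormant libraries. TRIB3, a pseudokinase that restrains ATF4, had 50.9, 45.7 and 51.8 CPM in activated libraries, against 970.5, 844 and 929 CPM in dormant libraries. PPP1R15A, which restores translation after stress, had 46.2, 45.4 and 48.5 CPM in activated libraries, against 757, 712 and 740.2 CPM in dormant libraries. The falls were 29.6-fold for DDIT3, 18.5-fold for TRIB3 and 15.8-fold for PPP1R15A, with no overlap between groups. GCN1, a partner of GCN2 on the ribosome, had 338, 389 and 362 CPM in activated libraries, against 264, 264 and 265 CPM in dormant libraries, a 1.37-fold rise. IMPACT, an inhibitor of GCN2, had 25.8, 29.6 and 31.8 CPM in activated libraries, against 24.7, 24.5 and 26.96 CPM in dormant libraries, with an edgeR adjusted p of 0.0498 that missed the threshold in 11 of 17 alternative settings. This list was chosen with its falls known and lends no support of its own.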

How the data were processed

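The authors deposited a table of raw counts per gene symbol and a table of FPKM. Each deposited FPKM equalled the count over a fixed gene length and the total of its library. The submitters' processing notes name fastp, HISAT2, HTSeq and GRCh38, with versions, annotation and strand setting not given in the sources used here. Per the labels' protocols, TRIzol RNA went into a VAHTS Universal V6 library kit.

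All genes were fitted together with edgeR 4.0.16 (R 4.3.3): TMM factors, the default low-count filter, the quasi-likelihood test and Benjamini-Hochberg adjustment at 0.05. The fit was run on simulated data with few changed genes, balanced in direction, which does not cover a change as widespread as here. Each standard error is the size of the log2 fold change over the root of F. Alternatives were size factors of DESeq2, total counts, upper-quartile factors, DESeq2 1.42.0, limma 3.58.1 with voom, no filter, 1 CPM in 3 libraries, the replicate block, each library left out, and limma on FPKM after adding 1 (mean of at least 0.5, or unfiltered) or 0.1 and taking log2.

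Members and lists were chosen with earlier results of these data known. Values in every library are given for the 5 largest changes per class, members against the direction of most of their class, the 2 with the highest FPKM per class, and HARS1, HARS2, GARS1 and KARS1, and for the 3 largest changes per direction in the 2 pathway lists (fewer where fewer passed). Other members have their fold or are only counted, since some items are not reported here. Positions and windows are RefSeq, GRCh38.p14, 1-based. Exon overlaps and 50-base words are from GENCODE 29.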

Additional observations from a re-analysis of the deposited data

How the results depend on the processing

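No member changed direction while called in any of 646 values under the alternatives, of which 622 kept their side of the threshold, 18 lost the call (LARS1, FARSB and WARS2 among them) and 6 gained it (AARS2, FARS2 and NARS2). The cytosolic median of -0.484 moved to -0.624 with total counts, -0.617 with log2(FPKM + 1) with or without a filter and -0.623 with log2(FPKM + 0.1), which share that scaling. The mitochondrial median of 0.198 moved to 0.0585, 0.0544 and 0.0611, and ranged over 0.092 to 0.252 when 1 library was left out, the lowest without activated replicate 2. The cytosolic median then ranged over -0.51 to -0.46. Leaving out 1 library gave 11 to 13 cytosolic falls, 8 rises each time, 5 mitochondrial falls each time and 6 to 8 mitochondrial rises. Without GARS1 and KARS1, 12 cytosolic members fell and 7 rose. Deviations of same-numbered libraries correlated at -0.018, 0.019 and -0.0028, so no signal shared by replicate number was seen. These values cannot show whether same-numbered cultures were grown or prepared together. Under a replicate block, the number of genes changed was 9789, and the counts of members called, 13 and 8 cytosolic and 5 and 7 mitochondrial falls and rises, equalled those without it. Taken within each replicate number, the cytosolic to mitochondrial ratio was lower in all 3 numbers in 13 pairs, against 12 without overlap. That count was 12 with FPKM or 1 added count and 12 to 13 with a library left out. Counts of charging partners called in either direction and of amino acid response genes called lower stayed within 1.5 times those reported.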
